A study of Mus musculus with 7 samples.

Results

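The H2 complex is the mouse major histocompatibility complex (MHC), and its members were taken as all rows of the deposited gene table whose symbol starts with H2-. There were 43 such rows among 24739: 3 class Ia rows (*H2-K1*, *H2-D1*, *H2-L*), 28 class Ib rows of the Q, T, M and Bl series, 10 class II rows and 2 others, *H2-Ke6* and *H2-K2*. They lie on chromosome 17 of mm10 between 33974659 and 37483529. RNA-Seq was performed on whole testes at embryonic day (E) 14.5, with 1 pair of testes of 1 embryo per library. The groups were 3 libraries labelled wild-type and 4 labelled as *Glis3* mutant, homozygous for the zf5 allele, a global mutation present in every cell of the embryo. All 7 libraries carry the same label for strain background, C57BL/6. No litter, date or lane is given with them, and no genotype at the H2 complex.

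Class Ia molecules (K, D and L) sit on almost all nucleated cells and present peptides from inside the cell to cytotoxic T cells, with beta-2-microglobulin as their light chain. Class Ib molecules are related proteins with narrower expression and more specialised ligands. Class II molecules (A and E, each an alpha chain and a beta chain) present peptides from outside the cell and are made mainly by dendritic cells, B cells and activated macrophages, while DM and O chains control their peptide loading. Class I genes are generally low in the embryo, and germ cells are known for very low class I levels. The complex is the most variable region of the mouse genome. Inbred strains carry different haplotypes that differ in which Q and T genes are present, and the haplotype of C57BL/6 has a deletion in the promoter of the E alpha gene, which is why the reference lists that gene as a pseudogene, *H2-Ea-ps*.

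The values are FPKM (fragments scaled to transcript length and to the size of the library), so levels of different genes can be compared per length. Tests covered the 13988 genes whose 7 values average 0.5 FPKM or more, with limma on log2(FPKM + 0.5). This scale understates the change of low genes. The sum of FPKM per library was between 694243 and 1018678, and the number of fragments behind a value is unknown. *Glis3* itself was at 7.63 and 6.89 FPKM in wild-type replicates 1 and 2, at 2.91 FPKM in the third library with that label (replicate 3), and between 2.66 and 3.86 FPKM in the 4 mutants. The value of replicate 3 fell inside the range of the mutants, and H2 differences without that library are given after the class II genes. Wild-type and mutant below are the labels of the libraries.

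Of the 43 members, 16 passed the filter on low values: 2 of 3 class Ia rows, 7 of 28 class Ib rows, 6 of 10 class II rows and *H2-Ke6*. None of the 16 differed by genotype at an adjusted p under 0.05, against a background of 0.00715% (1 of 13988 genes, *Cpsf4l*). At an unadjusted p under 0.05, 1 member was higher in the mutant and none was lower, where 8.21% and 8.79% of all genes tested were. Fitted differences were higher in the mutant for 13 of the 16 members (52.1% of all genes), with a median of 0.22 on the log2 scale against 0.01 for all genes. The members varied more between libraries than other genes did: their median SD of log2(FPKM + 0.5) over the 7 libraries was 0.39, against 0.15 for all genes tested.

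*H2-K1*, the K heavy chain (chr17:33996012-34000333, minus strand), had the highest mean level of the class Ia rows, although *H2-D1* was above it in wild-type replicate 1 and mutant replicate 2. It was at 2.55, 12.04 and 8.50 FPKM in wild-type libraries 1, 2 and 3 and at 4.05, 3.04, 15.3 and 17.2 FPKM in mutant libraries 1 to 4, the order used for all genes that follow. Wild-type replicate 1 and mutant replicates 1 and 2 were low, the other 4 libraries were high, and the genotypes overlapped in part: mutant replicates 1 and 2 lay inside the wild-type range and mutant replicates 3 and 4 above it. With a wild-type mean of 7.70 ± 4.80 (SD, n = 3) and a mutant mean of 9.90 ± 7.39 (SD, n = 4), the log2 fold change came to 0.22 (standard error 0.68, limma adjusted p = 0.894). It turned to -0.38 without wild-type replicate 1, to -0.09 without mutant replicate 3 and to -0.15 without mutant replicate 4.

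*H2-D1*, the D heavy chain (chr17:35263094-35267497, plus strand), was at 2.74, 4.004 and 3.30 FPKM in the wild-type libraries and at 3.70, 3.21, 5.70 and 5.60 in the mutant libraries. Wild-type replicate 1 and mutant replicates 1 and 2 were again the lowest of their genotype, but over a narrower range, and mutant replicates 1 and 2 lay inside the wild-type range. The wild-type libraries averaged 3.35 ± 0.633 (SD, n = 3) and the mutants 4.55 ± 1.28 (SD, n = 4), a log2 fold change of 0.37 (standard error 0.21, limma adjusted p = 0.394). The row of *H2-L* lies wholly within the span of *H2-D1* and holds next to no signal, so the level given for D includes any L.

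The promoters of these genes are shown because class I and class II genes are known to share a promoter module that includes the Y box, an inverted CCAAT box bound by the factor NF-Y. Each window is the 250 bases before the transcription start in RefSeq on GRCm38.p6, the assembly known as mm10, read 5′ to 3′ on the gene's own strand. Capitals mark the letters CCAAT found by a search of both strands, so that they read ATTGG where the match was on the other strand. Only matches that read ATTGG have the inverted direction of the Y box, and matches in both directions were counted. The windows of *H2-K1*, *H2-D1* and *H2-Q4* hold 2 matches each, that of *H2-T22* holds 3 and that of the class II gene *H2-Aa* holds 1. RefSeq gives *H2-K1* a second start further upstream, whose window (chr17:34000348-34000597) holds 1, and the window shown is the one next to the deposited row.
H2-K1, chr17:34000334-34000583, minus strand: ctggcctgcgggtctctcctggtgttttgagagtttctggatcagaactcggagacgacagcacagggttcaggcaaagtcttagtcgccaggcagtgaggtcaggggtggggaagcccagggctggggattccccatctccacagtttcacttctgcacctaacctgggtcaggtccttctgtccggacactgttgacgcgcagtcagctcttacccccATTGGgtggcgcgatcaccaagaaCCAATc
H2-D1, chr17:35262844-35263093, plus strand: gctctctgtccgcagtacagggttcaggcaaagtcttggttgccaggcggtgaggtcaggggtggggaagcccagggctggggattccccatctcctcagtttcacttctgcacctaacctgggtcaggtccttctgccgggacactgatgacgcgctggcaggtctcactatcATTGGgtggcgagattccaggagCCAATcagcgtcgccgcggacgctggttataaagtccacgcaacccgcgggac
H2-Q4, chr17:35379367-35379616, plus strand: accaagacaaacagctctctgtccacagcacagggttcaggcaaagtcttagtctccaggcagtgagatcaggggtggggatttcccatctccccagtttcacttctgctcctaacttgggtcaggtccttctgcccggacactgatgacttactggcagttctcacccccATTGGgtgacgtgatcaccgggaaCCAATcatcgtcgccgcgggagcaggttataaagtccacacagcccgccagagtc
H2-T22, chr17:36042743-36042992, minus strand: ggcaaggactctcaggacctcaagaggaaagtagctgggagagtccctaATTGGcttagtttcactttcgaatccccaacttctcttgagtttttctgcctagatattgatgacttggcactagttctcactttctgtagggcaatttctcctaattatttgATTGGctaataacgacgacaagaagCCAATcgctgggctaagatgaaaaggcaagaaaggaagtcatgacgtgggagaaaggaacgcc
H2-Aa, chr17:34287824-34288073, minus strand: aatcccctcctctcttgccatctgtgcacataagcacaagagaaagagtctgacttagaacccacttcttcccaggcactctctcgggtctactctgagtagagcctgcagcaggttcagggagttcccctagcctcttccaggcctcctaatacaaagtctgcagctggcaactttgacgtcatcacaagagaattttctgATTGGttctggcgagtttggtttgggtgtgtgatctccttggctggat
Windows were found for 31 of the 43 members, 34 windows in all, of which 30 hold CCAAT in either direction. In those of *H2-T23*, *H2-M2*, *H2-M11*, *H2-M10.2*, *H2-M10.3*, *H2-M10.4*, *H2-M10.5* and *H2-M10.6* it is found only in the forward direction. *H2-K1*, *H2-DMa* and *H2-M9* each enter with both of their windows. Of 32851 such windows in the genome, 33.8% hold CCAAT in either direction. These matches are descriptions of letters, and no binding was measured.

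Among class Ib genes, the rows of *H2-T22*, *H2-Q4* and *H2-T9* had the highest levels in each of the 7 libraries, in an order that differed between libraries. *H2-T22*, whose product is a ligand of gamma delta T cells, was at 5.53, 6.60 and 5.38 FPKM in the wild-type libraries and at 7.73, 8.43, 4.10 and 7.91 in mutants. The row *H2-T9* covers the same span, with 2.50, 4.99 and 4.53 FPKM in wild-type libraries and 5.14, 2.14, 9.17 and 4.19 in mutants. The split between both rows is uncertain, since high values of 1 row meet low values of the other, as in mutant replicate 3. Tested alone, *H2-T22* had a log2 fold change of 0.21 (standard error 0.22, limma adjusted p = 0.663). That of *H2-T9* was 0.23 (standard error 0.40, limma adjusted p = 0.805). Added together, the rows gave 8.03, 11.6 and 9.90 FPKM in wild-type libraries and 12.9, 10.6, 13.3 and 12.1 in mutants. With this sum, a choice made after seeing the data, the log2 fold change was 0.31 (standard error 0.13, limma adjusted p = 0.278), and the groups overlapped by 1 pair of libraries.

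*H2-Q4*, a class Ib heavy chain (chr17:35379617-35384674, plus strand), was at 5.11, 3.45 and 3.58 FPKM in the wild-type libraries and at 7.37, 6.73, 4.89 and 3.98 in the mutant libraries. Here wild-type replicate 1 and mutant replicates 1 and 2 were the 3 highest, the reverse of *H2-K1*. Wild-type libraries averaged 4.05 ± 0.921 (SD, n = 3) and mutants 5.74 ± 1.57 (SD, n = 4), which gave a log2 fold change of 0.44 (standard error 0.21, limma adjusted p = 0.334).

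The remaining class Ib members above the filter were low. *H2-M3*, which presents formylated peptides of bacteria and mitochondria, was at 1.21, 2.69 and 1.61 FPKM in wild-type libraries and at 2.23, 1.23, 2.10 and 1.76 in mutants. *H2-T23*, which encodes Qa-1, the ligand of the CD94/NKG2 receptors, was at 1.96, 1.34 and 0.718 FPKM against 1.20, 1.49, 1.94 and 1.72. Neither showed an order by genotype or by the libraries named above. *H2-Q10*, a secreted protein made mainly in liver, was at 1.13, 1.47 and 0.613 FPKM against 2.64, 1.08, 0.867 and 0.800, with mutant replicate 1 alone on top. *H2-T24* was at 0.987, 0.625 and 0.604 FPKM against 0.895, 1.08, 0.826 and 0.671, with the same 3 libraries highest as for *H2-Q4*. The log2 fold changes of these 4 genes were between 0.02 and 0.23.

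Class II genes were not silent in these testes. *H2-Aa*, the A alpha chain (chr17:34282751-34287771, minus strand), was at 0.251, 5.44 and 7.07 FPKM in wild-type libraries and at 1.21, 0.325, 3.73 and 5.65 in mutants. Its partner *H2-Ab1*, the A beta chain, was at 0, 1.48 and 0.746 FPKM against 0.129, 0.193, 1.53 and 1.57. *H2-Eb1*, the E beta chain, was at 0.163, 1.22 and 1.25 FPKM against 0.286, 0.211, 1.27 and 1.13. In all 3 genes wild-type replicate 1 and mutant replicates 1 and 2 lay below every other library. *H2-Ea-ps*, the E alpha locus, went the other way: it was at 0.397 FPKM in wild-type replicate 1, at 3.39 and 1.18 in mutant replicates 1 and 2, and listed at 0 in the other 4 libraries. The invariant chain *Cd74*, which accompanies class II chains to the endosome, was at 0.276, 0.535 and 0.699 FPKM in wild-type libraries and at 1.48, 0.987, 0.393 and 0.919 in mutants. In wild-type replicates 2 and 3 and mutant replicates 3 and 4, *H2-Aa* was thus above both its beta chain and *Cd74*.

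By genotype, the log2 fold changes of the class II genes were -0.39 for *H2-Aa* (standard error 0.91), 0.12 for *H2-Ab1* (standard error 0.58), -0.16 for *H2-Eb1* (standard error 0.44) and 0.90 for *H2-Ea-ps* (standard error 0.69). Their adjusted p-values from limma were between 0.539 and 0.937, and the directions of *H2-Aa*, *H2-Ab1* and *H2-Eb1* turned when 1 library or another was left out. That of *H2-Ea-ps* has no value without mutant replicate 1, which holds most of its signal, because the gene then falls below the filter. *H2-DMa*, the alpha chain of the peptide-loading catalyst, was at 0.994, 0.777 and 0.922 FPKM against 1.85, 1.69, 0.673 and 0.883, highest in the 3 libraries in which *H2-Aa* was lowest. *H2-DMb1*, a DM beta chain, was at 0.263, 0.474 and 0.790 FPKM against 1.13, 0.574, 0.987 and 1.01. It had the smallest unadjusted p of the members, and its log2 fold change was 0.51 (standard error 0.22, limma adjusted p = 0.280), and mutant replicate 2 lay below the highest wild-type library. Without the library labelled wild-type replicate 3 its log2 fold change was 0.71 (adjusted p = 0.0918), and 722 genes of the table were called (5.15% of 14019 tested), none of them a member. The log2 fold changes of *H2-K1*, *H2-D1* and *H2-Q4* were then 0.40, 0.37 and 0.37. Those of *H2-Aa* and *H2-Eb1* turned to 0.22 and 0.078, and those of *H2-T23*, *H2-Q10* and *H2-M3* to -0.039, -0.052 and -0.025.

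*H2-Ke6* is named for its place in the K region but encodes a 17-beta-hydroxysteroid dehydrogenase (Hsd17b8) and no MHC protein. It was at 38.7, 32.0 and 34.5 FPKM in wild-type libraries and at 37.4, 37.6, 29.8 and 30.6 in mutants, the highest level of all members. Its log2 fold change was -0.05 (standard error 0.11, limma adjusted p = 0.830). Of its 100-base stretches in GENCODE M21, 61.6% also occur in the transcripts of another gene, *Gm20427*, so its level may hold reads of both. In the other tested members found there such sharing reached 31.5% (*H2-T22*, mostly with *A930015D03Rik*), was 14.1% for *H2-Q4*, 3.59% for *H2-D1* and 0.957% for *H2-K1*, and was 0 for *H2-Aa*, *H2-Ab1*, *H2-Eb1* and *H2-Ea-ps*. *H2-T9* has no transcripts of its own in that annotation.

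Among the 27 members below the filter, 6 were listed at 0 in every library, all of them in the M series, and 18 more stayed under 0.497 FPKM. The other 3 reached 0.5 FPKM in a library. *H2-Q1* was at 0.515, 0.0508 and 0.0160 FPKM in wild-type libraries and at 0.713, 0.629, 0.0170 and 0.0685 in mutants. *H2-Q7*, which encodes a Qa-2 antigen, was listed at 0 in wild-type replicate 1 and mutant replicates 1 and 2, and was at 0.720, 0.626, 0.267 and 0.326 FPKM in wild-type replicates 2 and 3 and mutant replicates 3 and 4. *H2-DMb2* was at 0.105, 0.858 and 0.204 FPKM in wild-type replicate 1 and mutant replicates 1 and 2, and listed at 0 in the rest. Of the 27 rows, 5 (*H2-K2*, *H2-Q6*, *H2-Q7*, *H2-Q8* and *H2-Q9*) were at 0 in precisely those 3 libraries and above 0 in the other 4, as were 18 of all 10751 genes below the filter (0.167%). *H2-DMb2* alone had the opposite pattern, found in 0.214% of those genes. *H2-Q8* and *H2-Q9* share the spans of *H2-Q6* and *H2-Q7* and are not independent of them.

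**Figure D1:**
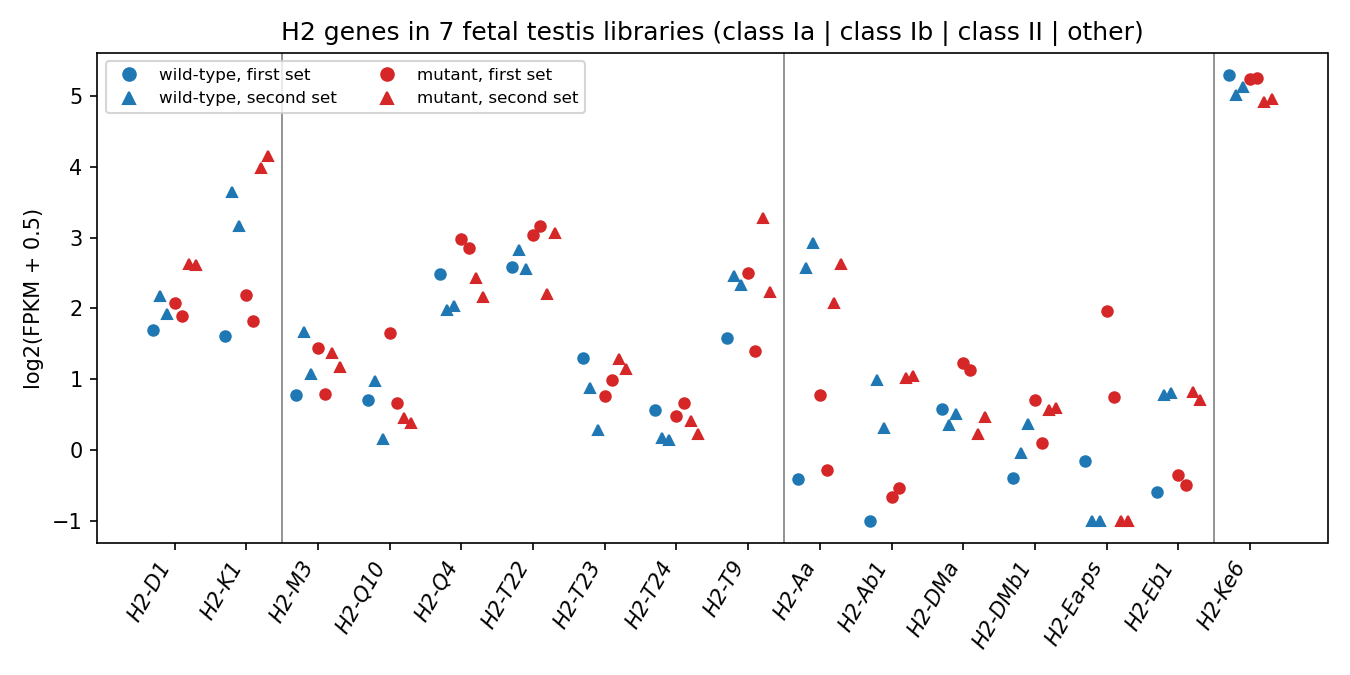
Level of the 16 tested H2 genes as log2(FPKM + 0.5) in each of 7 libraries, with blue for wild-type, red for mutant, circles for wild-type replicate 1 and mutant replicates 1 and 2 (first set) and triangles for the other 4 (second set). Circles lie below triangles for *H2-K1*, *H2-Aa*, *H2-Ab1* and *H2-Eb1* and above them for *H2-Q4*, *H2-T24*, *H2-DMa*, *H2-Ea-ps* and *H2-Ke6*, while blue and red overlap in every gene.

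To separate this pattern from genotype without using the H2 genes, libraries were grouped by genes outside chromosome 17 whose 7 ordered log2 values leave a gap of at least 2 with 2 or more libraries on each side. There were 17 such genes. The commonest grouping, found in 4 of them (*Eno1b*, *Rprl3*, *C1rb* and *AA465934*), set wild-type replicate 1 and mutant replicates 1 and 2 apart from wild-type replicates 2 and 3 and mutant replicates 3 and 4, and each other grouping was found once. These are called the first set (3 libraries) and the second set (4 libraries). The rule was chosen after the H2 values had been seen, so the grouping is not independent of them. The sets are not groups of the study. Sums of FPKM were also lower in the first set, at 694243, 831918 and 776951, than in the second, where they were between 956697 and 1018678. What the sets stand for (descent, litter, handling) cannot be told apart with these labels, and the haplotype of each embryo was not tested.

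Both sets lay wholly apart in 9 of the 16 members tested (56.2%), against 10.9% of all genes. Because the sets were chosen with the H2 values known, the shares of members describe the pattern and are no test of it. In 5 of the 9 the first set was above (8.06% of all genes) and in 4 it was below (2.88% of all genes). The share was 20.2% in 89 other tested genes of the H2 interval, 18.1% in 586 genes on the rest of chromosome 17 and 10.5% in 13297 genes elsewhere. Genotypes lay wholly apart in none of the 16 members, where 7.31% of all genes were higher in every mutant library and 7.59% lower. By the wider criterion of a gap of at least 1 on the log2 scale, a factor of 2, 3 members were divided (18.8%, against 1.51% of all genes), 2 of them in a mixed way (0.808% of all genes). *H2-Aa* (gap 1.30) and *H2-Eb1* (gap 1.05) were divided between the sets, as 0.143% of all genes were, and *H2-Ea-ps* (gap 1.21) by mutant replicate 1 alone. *H2-K1* lay just outside the limit with a gap of 0.98, also between the sets. No member was divided by genotype.

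Other genes of the region were divided in the same way. Across the genome 20 genes were divided between the sets, and 10 of them (50%) are on chromosome 17, which holds 4.94% of the genes tested. These 10 include the members *H2-Aa* and *H2-Eb1*. The 20 also include *Eno1b*, *Rprl3*, *C1rb* and *AA465934*, by which the sets were chosen, so the shares are no test of the pattern. Inside the H2 interval the divided genes other than members included *AA388235*, which was at 0 in the first set and between 1.23 and 1.78 FPKM in the second. *A930015D03Rik* is a noncoding RNA that spans *H2-T23* and *H2-T24*. It was between 4.46 and 5.56 FPKM in the first set and between 0.645 and 1.21 in the second. *Gm8801* was between 2.04 and 2.45 FPKM in the first set and at most 0.0663 in the second. *Rps18*, a ribosomal protein gene that ends 19018 bases before the interval and was picked after its values were seen, had the widest gap named here. It was at 0.494, 0.462 and 0.258 FPKM in the first set and at 158, 148, 119 and 134 in the second. Reads could align to several places, and whether the placement of reads enters these values was not tested.

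A fit with a term for the library set asks for the difference by genotype inside the sets. It was added after the data were seen, with sets between which *H2-K1*, *H2-Aa* and *H2-Eb1* were already known to lie apart. Smaller standard errors and shifted differences of members that lie apart between the sets, *H2-Q4* among them, thus follow from the choice of sets. They are no separate result. The fit again called no member, against a background of 0.00715%. At an unadjusted p under 0.05, 4 of the 16 members (25%) were higher in the mutant, where 9.99% of all genes were, and none was lower, where 11.7% were. Fitted differences were higher for 15 of 16 members (50% of all genes), with a median of 0.20 on the log2 scale. Because the sets were chosen with the H2 values known, these counts of members describe the fit and are no test of genotype. The log2 fold change of *H2-K1* moved from 0.22 (standard error 0.68) to 0.55 (standard error 0.15, limma adjusted p = 0.129). *H2-D1* was at 0.46 (standard error 0.11, adjusted p = 0.125), *H2-Q4* at 0.35 (standard error 0.09, adjusted p = 0.129) and *H2-DMb1* at 0.57 (standard error 0.20, adjusted p = 0.169), all by limma. For *H2-Aa* and *H2-Eb1* the fitted difference turned from negative to 0.03 and 0.05, with standard errors of 0.32 and 0.12.

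The values behind this fit can be read library by library. In *H2-K1* the first set had 2.55 FPKM in the wild-type embryo and 4.05 and 3.04 in both mutants, and the second set had 12.04 and 8.50 in wild-type and 15.3 and 17.2 in mutants. Every mutant library lay above every wild-type library of its own set in 5 of 16 members (31.2%): *H2-K1*, *H2-D1*, *H2-Q4*, *H2-Ab1* and *H2-DMb1*. Over all genes tested, 11.8% did so. The opposite order, every mutant below, was found for *H2-Ke6* alone, 1 of 16 against 14.7% of all genes. Because the sets were chosen with the H2 values known, these shares of members describe the values and are no test. Only 1 wild-type library belongs to the first set, and in the second set 1 of the 2 wild-type libraries is the library labelled wild-type replicate 3. With the second set alone, 2 libraries against 2, the log2 fold changes were 0.65 for *H2-K1* and 0.57 for *H2-D1*, with an adjusted p of 0.784 from limma for both.

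**Figure D2:**
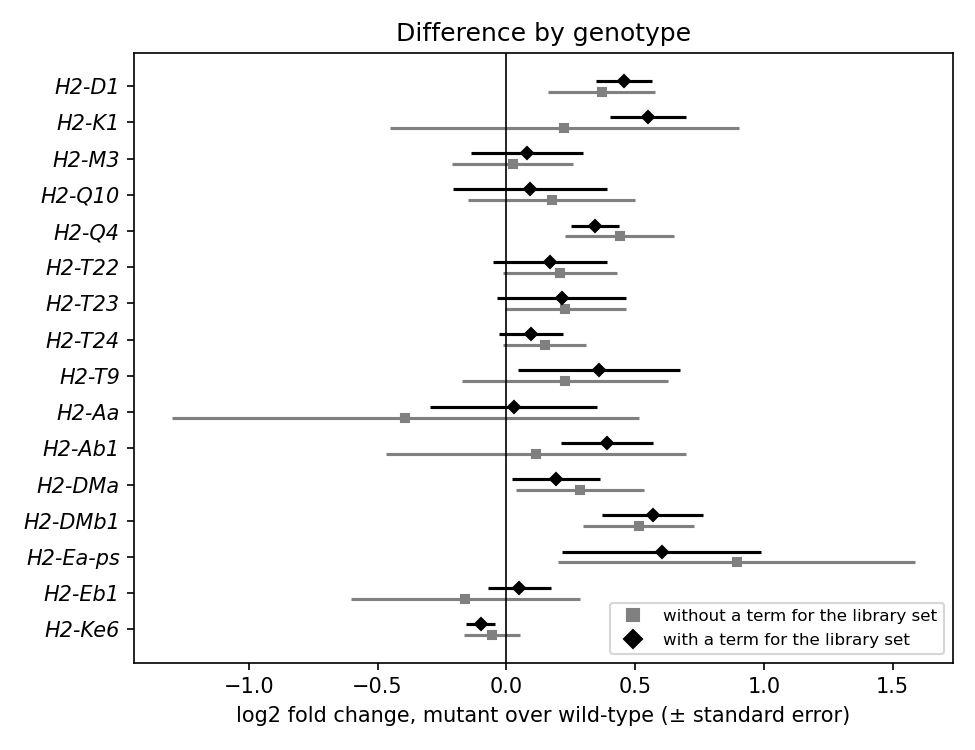
Log2 fold change of mutant over wild-type for the 16 tested H2 genes from limma, with standard errors as bars, fitted without (grey squares) and with (black diamonds) a term for the library set. The bar of *H2-K1* shortens from 0.68 to 0.15 and its value moves from 0.22 to 0.55, with sets chosen after this gene was seen apart between them. No gene is past an adjusted p of 0.05 in either fit.

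Reads at repeats inside H2 genes were counted in a separate table by the authors, from uniquely mapped reads, and give a second look at some members. A mean of at least 10 such reads was found in 6 of 43 rows, and *H2-T22* and *H2-T9* share theirs. None was called by edgeR, against a background of 0.00776% (1 of 12884 genes, *Rimbp2*), and 2 had an unadjusted p under 0.05, where 12.5% of all genes did. The reads of *H2-D1* come from 1 element, a B2_Mm2 SINE at chr17:35267183-35267356 that lies wholly in the annotated UTR of the gene. It had 88, 35 and 35 reads in wild-type libraries and 97, 78, 46 and 58 in mutants. First-set libraries held the most, unlike the FPKM of the whole gene, which was lowest there within each genotype. Scaled to library size (CPM), the values were 21.1, 11.3 and 9.76 against 30.9, 26.3, 15.3 and 18.3, a log2 fold change of 0.67 (edgeR, adjusted p = 0.375).

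*H2-Q4* had most of its reads in an RMER19B element at chr17:35384128-35384353, also in the annotated UTR, with 65, 32 and 26 reads in wild-type libraries and 76, 77, 35 and 38 in mutants. FPKM and repeat reads of this gene had the same order of sets. All its repeats together gave a log2 fold change of 0.74 (edgeR, adjusted p = 0.377). With the term for the set, the values were 0.58 for *H2-Q4* (adjusted p = 0.183) and 0.56 for *H2-D1* (adjusted p = 0.163). An MTEa element of 77 bases at the end of *H2-T22* had 76, 90 and 69 reads against 78, 69, 95 and 74. Scaled to library size, all repeats of *H2-T22* were at 20.2, 29.9 and 20.6 CPM against 27.0, 26.3, 34.0 and 26.8. The sets overlapped, and the log2 fold change was 0.28 (edgeR, adjusted p = 0.543).

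*H2-T24* differed inside a single gene. An IAPEz-int provirus of 6423 bases in its intron (chr17:36007482-36013904) had no read in the 3 libraries of the first set and 24, 7, 15 and 31 reads in wild-type replicates 2 and 3 and mutant replicates 3 and 4. IAPLTR1a_Mm elements on both of its sides were likewise at 0 in the first set, whereas the FPKM of *H2-T24* was highest there. Both genes spanning the element, *H2-T24* and *A930015D03Rik*, are on this stretch, and the reads were mapped without strand. *H2-T23* had 17, 4 and 1 reads in wild-type libraries and 8, 9, 13 and 11 in mutants at a B2_Mm1a element, under the mean needed for the test.

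**Figure D3:**
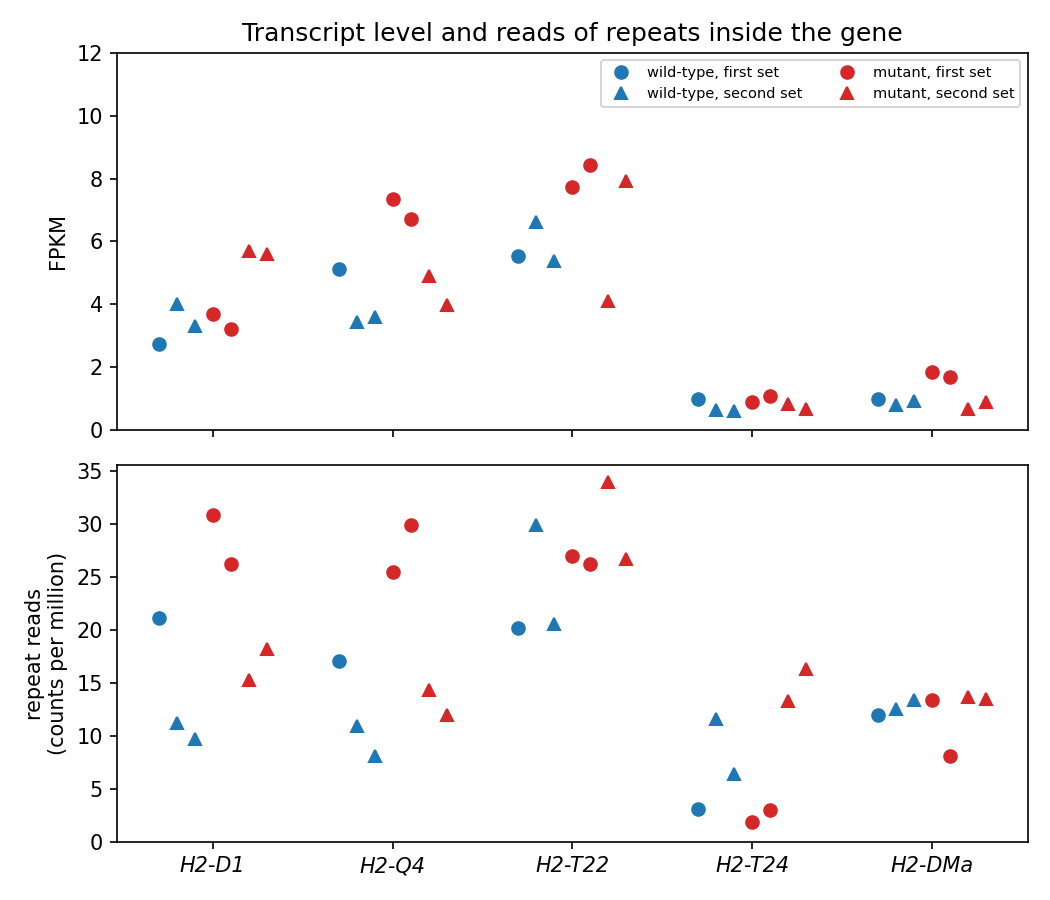
FPKM (upper panel) and CPM of repeat reads inside the gene (lower panel) of 5 H2 genes in each library, with colours for genotype and shapes for the library sets as in the plot of levels by library. In *H2-D1* the circles are at 21.1 to 30.9 CPM and above the triangles while FPKM has most triangles on top, and in *H2-T24* the circles are lowest in repeat reads and highest in FPKM.

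Loci without any read were more common in the H2 interval than elsewhere. Of 100 repeat loci in the interval with at least 20 reads in a library, 7 had no read in another (7%, exact 95% interval 2.86% to 13.9%). The interval covers counting error only and treats loci as independent, although some of the 7 lie side by side. Over all 45424 such loci of the genome the share was 0.647%. Without wild-type replicate 1 the share in the interval was 3.41% (3 of 88), and with a minimum of 50 reads it was 2.38% (1 of 42). Shares over the genome under these settings are not given here. In 4 of the 7 the zeros were all libraries of 1 set, with reads in all of the other (4% of loci, against 0.044% of all). A MYSERV-int and a MERVL_2A-int element in *AA388235*, next to *H2-K2*, and the IAPEz-int of *H2-T24* had 0 reads in the first set. A PB1D10 element had 29, 11 and 17 reads in the first set and none in the second. A B2_Mm1a element in an intron of *Ddx39b*, 11243 bases from *H2-D1*, had 0, 1 and 1 reads in the first set and 30, 36, 32 and 31 in the second. The last 2 loci, a B1F and a B3A element beyond *H2-Q10*, had 20 and 31 reads in wild-type replicate 1 and at most 6 in any other library. At these depths a count of 0 does not exclude a low level.

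**Figure D4:**
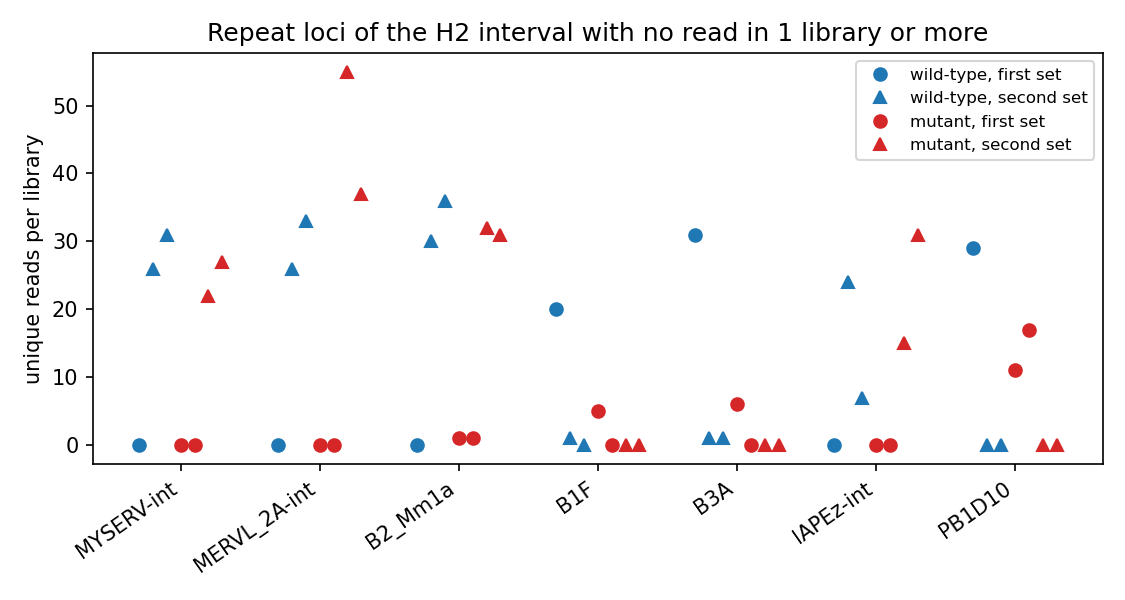
Unique reads per library at the 7 repeat loci of the H2 interval that have at least 20 reads in 1 library and none in another, ordered along the chromosome, with colours for genotype and shapes for the sets. For MYSERV-int, MERVL_2A-int, B2_Mm1a and IAPEz-int the circles lie at 0 or 1 read, and for PB1D10 the triangles lie at 0.

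Genes that assemble and load MHC molecules were given by a list of 24 (class I and II presentation partners), of which 21 passed the filter and none was called. Fitted differences were higher in the mutant for 15 (52.1% of all genes were) and lower for 6, with a median of 0.09 on the log2 scale. At an unadjusted p under 0.05, 7 of the 21 were higher, where 8.21% of all genes were, and none was lower. All mutants lay above all wild-type libraries in 3 of the 21 (14.3%, against 7.31% of all genes): *B2m*, *Psmb8* and *Ctsl*. *B2m*, the light chain of class I molecules, was at 63.1, 85.8 and 87.6 FPKM in wild-type libraries and at 93.9, 104, 90.7 and 97.6 in mutants. All mutant libraries lay above all wild-type libraries, without regard to the sets. The log2 fold change was 0.30 (standard error 0.12, limma adjusted p = 0.247). *Psmb8*, a subunit of the immunoproteasome that cuts peptides for class I, was at 0.778, 1.74 and 1.29 FPKM against 1.76, 2.23, 1.98 and 2.30, again without overlap, and its log2 fold change was 0.57 (standard error 0.19, limma adjusted p = 0.210). *Ctsl*, the endosomal protease cathepsin L, is named after its values were seen, for the smallest p of the list. It was at 402, 544 and 437 FPKM against 680, 605, 609 and 638, and its log2 fold change was 0.47 (standard error 0.11, limma adjusted p = 0.168).

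The peptide transporter gene *Tap1* was at 1.58, 2.30 and 1.90 FPKM against 2.97, 2.48, 2.79 and 2.11, with mutant replicate 4 below the highest wild-type library. *Tap2*, below the filter, was at 0.263, 0.218 and 0.184 FPKM against 0.275, 0.472, 0.543 and 0.561, with no overlap. *Psmb9*, another immunoproteasome subunit, was at 0.848, 1.11 and 1.10 FPKM against 0.866, 0.967, 0.986 and 0.673. *Tapbp*, which encodes tapasin, was at 16.1, 14.1 and 12.3 FPKM against 13.9, 12.6, 14.0 and 14.4. The master regulators were scarce: *Nlrc5*, the activator of class I genes, stayed between 0.0598 and 0.207 FPKM. *Ciita*, the activator of class II genes, was at 0.234, 0.381 and 0.375 FPKM against 0.607, 0.384, 0.425 and 0.448, below the filter and without overlap, though the lowest mutant and the highest wild-type library nearly met. *Tap1*, *Psmb8* and *Psmb9* lie inside the class II region. Of the 21 partners tested, the sets lay wholly apart in 1, where they did so in 10.9% of all genes.

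MHC-like genes outside the complex were listed as 10 genes, of which 8 were tested. Fitted values were higher in the mutant for 7 of them (52.1% of all genes, median 0.13), and none was called (0.00715% of all genes). At an unadjusted limma p under 0.05, 3 were higher (8.21% of all genes) and none was lower (8.79%). All mutants lay above all wild-type libraries in *Fcgrt* and *Mr1* (25%, against 7.31% of all genes). Of 26 interferon response genes, 20 were tested: 16 had higher (52.1% of all genes) and 4 lower fitted values (median 0.18). None was called (0.00715% of all genes). At an unadjusted limma p under 0.05, 4 were higher (8.21% of all genes) and 1 was lower (8.79%). All mutants lay above all wild-type libraries in 2 (10%, against 7.31% of all genes). Without the library labelled wild-type replicate 3, 2 of them were called, where 5.15% of all genes were: *Irf8* (log2 fold change 0.42, limma adjusted p = 0.0383) and *Irf1* (log2 fold change -0.55, limma adjusted p = 0.0292). The sets lay apart in none of the MHC-like genes tested and in 2 of the 20 interferon response genes, where they did so in 10.9% of all genes.

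Levels per cell and numbers of cells cannot be told apart in whole testes, so markers of other cell types are given beside these values. All 12 macrophage genes tested had higher fitted values in the mutant (median 0.30, against 52.1% of all genes higher), 4 of them at an unadjusted p under 0.05 (8.21% of all genes) and none called. Their summed level was between 60.6 and 98.9 FPKM in wild-type libraries and between 83.6 and 130 in mutants, and between 60.6 and 88.9 in the first set and 69.8 and 130 in the second. Of the cells that make most class II, dendritic cell markers summed to between 32.1 and 42.0 FPKM, nearly all of it from *Zbtb46* (29.7 to 40.2 FPKM), with 6 of 8 genes below 0.5 FPKM in every library. B cell markers summed to between 1.23 and 1.92 FPKM and T and NK cell markers to between 1.69 and 2.38, with 5 of 6 genes of each list below 0.5 FPKM everywhere. The part of any of these cells in the H2 values was not tested.

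Among the remaining lists, none had a gene called with all 7 libraries. Without wild-type replicate 3, 8 of 10 germ cell genes and 1 of 6 fetal Leydig cell genes (*Nr5a1*) were called, where 5.15% of all genes were. Fitted values were lower in the mutant for 10 of 10 germ cell genes (median -1.04) and higher for 6 of 6 fetal Leydig cell genes (median 0.47) and 5 of 6 Sertoli cell genes (median 0.13). Endothelial genes (5 higher, 3 lower, median 0.02), erythroid genes (3 higher, 4 lower, median -0.08) and mesonephric and duct genes (1 higher, 2 lower, median -0.12) were mixed. The Sertoli cell genes, which define the tissue, summed to between 222 and 354 FPKM. Erythroid genes summed to between 1797 and 3481 FPKM in the first set and between 4203 and 5259 in the second. Their part in the difference between the sets was not tested.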

How the data were processed

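RNA-Seq of whole testes at E14.5 gave 7 libraries, 3 labelled wild-type and 4 mutant, grouped by the labels' titles. Ribosomal RNA was removed and no poly-A selection was made. The authors aligned reads to mm10 with TopHat 2.0.12, unstranded and with several alignments allowed per read, and deposited FPKM values per RefSeq gene from Cuffnorm. They also deposited counts of uniquely mapped reads per LINE, SINE and LTR element, made with HTSeq. The header of both tables lacks a tab between 2 column names, and columns were therefore read by position in the order the header gives. The number of unused sample columns was 0.

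Genes were tested with limma 3.58.1 on log2(FPKM + 0.5), with a trend and two-sided p-values, for a mean of at least 0.5 FPKM. Counts of elements wholly inside a gene were summed and compared in edgeR 4.0.16 by its quasi-likelihood method (glmQLFTest after TMM scaling, mean of at least 10 reads). P-values were adjusted by Benjamini-Hochberg over all genes tested, with a threshold of 0.05. Exact two-sided permutation tests of single members over the 35 splits into 3 and 4 libraries cannot give a p below 0.0571. Both tests were tested on simulated data. DESeq2 1.42.0 was an alternative. Members with a mean of at least 0.5 FPKM were named with every value, as were members reaching 0.5 FPKM in 1 library, 9 of the 24 listed partners fixed by name, and at most 8 neighbouring genes divided like a member. Elements were annotated with GENCODE M21. The members and the 13 gene lists were chosen with earlier results of these data known, and 6 alternatives were added after results were seen.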

Additional observations from a re-analysis of the deposited data

Results flagged for a closer look

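In 5 of 31 groups of 4 mutant libraries examined, 1 library stood apart by Dixon's criterion for 4 values, the gap to the nearest value over the whole range. Chance flags about 1 in 20 such groups. *H2-Q10* had 2.64 FPKM in mutant replicate 1 and 0.800 to 1.08 in the other mutants (ratio 0.845). *H2-T22* had 4.10 FPKM in mutant replicate 3 and 7.73 to 8.43 in the others (ratio 0.838), in the library with the highest value of the row *H2-T9*, which shares its span. Repeat reads of *H2-DMa* were at 8.08 CPM in mutant replicate 2 and 13.4 to 13.7 in the others (ratio 0.947). Repeat reads of *H2-T22*, which are also those of *H2-T9*, were at 34.0 CPM in mutant replicate 3 and 26.3 to 27.0 in the others (ratio 0.899 for both rows).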

How the results depend on the processing

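No H2 gene passed the threshold under any of 20 alternatives for FPKM and 15 for repeat reads. The lowest adjusted p of a member was 0.0918. Of 22 log2 fold changes (16 from FPKM, 6 from repeat reads), 9 kept their direction under every alternative run. From repeat reads these were *H2-D1*, *H2-Q4*, *H2-T22* and *H2-T9*. The rows *H2-T22* and *H2-T9* hold the same repeat reads, so their result is counted under both. From FPKM they were *H2-D1*, *H2-Q4*, *H2-DMb1*, *H2-T24* and *H2-Ea-ps*. Genes below a filter have no value under it (*H2-Ea-ps* without mutant replicate 1, for example). The cause of each change below was not tested. Depth is unknown for FPKM, and the reads of most members at repeats are too few for a test.

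Without each library in turn, the genes called from FPKM numbered 1 to 722 and from repeat reads 0 to 149, both largest without the library labelled wild-type replicate 3. Members higher in the mutant numbered 10 to 15, divided members 3 to 5, divided genes 222 to 269, and the share of loci with no read was 3.41% to 7.22%. Log2 fold changes that changed sign ranged from -1.44 to 0.22 for *H2-Aa*, -0.43 to 0.56 for *H2-Ab1*, -0.62 to 0.078 for *H2-Eb1*, -0.38 to 0.64 for *H2-K1*, -0.12 to 0.018 for *H2-Ke6*, -0.18 to 0.27 for *H2-M3*, -0.11 to 0.36 for *H2-Q10*, -0.039 to 0.47 for *H2-T23* and -0.082 to 0.54 for *H2-T9*. For repeat reads they ranged from -0.11 to 0.098 for *H2-DMa* and -0.17 to 0.88 for *H2-T24*.

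Same-numbered wild-type and mutant libraries deviated from their group means with correlations of 0.20, -0.18 and 0.23, and wild-type replicates 1 and 3, but not 2, correlated best with their own number among the mutants, so the numbers were not taken as pairs. With a replicate block, in which mutant replicate 4 has no partner and drops out of the contrast, 0 genes were called from FPKM and 0 from repeat reads. *H2-Ab1* turned to -0.16, *H2-K1* to -0.15 and repeat reads of *H2-T24* to -0.31.

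With no filter 4 genes were called from FPKM, and 24 members were higher in the mutant. With a mean of at least 2 FPKM there were 5 higher members, 1 divided member and 136 divided genes. Quantile normalization called 3 genes. A pseudocount of 0.1 gave 5 divided members and 349 divided genes, and a gap of 2 gave 0 and 36. For repeat reads, DESeq2 called 49 genes, no filter 53, and the term for the library set 51. With a minimum of 50 reads, 2.38% of loci had no read in a library. With the term for the set, *H2-Aa* turned to 0.029 and *H2-Eb1* to 0.051, also with summed rows. With the second set alone 0 genes were called from FPKM and 0 from repeat reads, and 8 members were higher. *H2-DMa* then turned to -0.082, *H2-M3* to -0.098, *H2-Q10* to -0.15, *H2-T22* to -0.055 and repeat reads of *H2-DMa* to 0.069.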
